A study of Canis lupus familiaris with 33 samples.

Results

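PTGS2 encodes cyclooxygenase-2 (COX-2), the enzyme that nonsteroidal anti-inflammatory drugs block when they are given to dogs with bladder cancer. The 29 canine invasive urothelial carcinomas (iUC) of the series were ranked by their deposited PTGS2 value, so that the groups were chosen by the measured PTGS2 level itself, and the 10 tumors with the highest value (PTGS2-high) were compared with the 10 with the lowest (PTGS2-low) across the other genes. In all, 20 of 29 tumors enter the comparison and the 9 between them do not. The comparison asks which genes differ between bladder cancers that hold much and little COX-2 transcript.

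COX-2 turns arachidonic acid, which cytosolic phospholipase A2 cuts from membranes, into prostaglandin H2, and terminal synthases turn that into prostaglandin E2, prostacyclin, prostaglandin D2 or thromboxane. These act on their own G protein-coupled receptors in the cell that made them and in its neighbors, and are taken up by a transporter and inactivated by 15-hydroxyprostaglandin dehydrogenase. PTGS2 is an inducible gene, known to respond to inflammatory cytokines, growth factors and NF-kB, and its messenger RNA is short-lived.

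Each tumor came from a different dog that had received no treatment, as a cystoscopic biopsy. The labels record no genotype for any sample. The 4 normal samples are bladder mucosa dissected away from the wall. RNA was sequenced in bulk, so fewer cells of a type and less RNA per cell cannot be told apart. Each value is a log2 normalized (TMM) level from which the gene's median over the 33 samples was subtracted. It places a sample relative to the others and says nothing of abundance, and the number of reads behind it was not given. A gene's shared lowest value stands for a sample in which it was not seen above the minimum, and 19237 genes that lay above it in at least 10 tumors, or had none, were tested. Of 30 luminal and urothelial genes tested, among them the uroplakins UPK1A, UPK2, UPK3A and UPK3B, 16 were higher on average in the PTGS2-high tumors and 14 lower, with a median difference of 0.07, beside 51.4% of all genes higher. The mean level of this list ran from -0.42 to 0.51 in the PTGS2-high and from -1.08 to 0.48 in the PTGS2-low tumors, so the groups overlapped. Over 9 smooth muscle genes the mean level ran from 4.33 to 6.26 in the normals and reached at most 3.33 in any tumor. The part of such tissue content in differences between tumors and normals was not tested.

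PTGS2 itself ranged from 3.66 in tumor 15 to -3.00 in tumor 9. In the PTGS2-high tumors the lowest, median and highest values were 1.10, 1.71 and 3.66, and in the PTGS2-low tumors -3.00, -1.64 and -0.82. The group means lay 3.53 apart on the log2 scale, an 11.6-fold difference, which the ranking itself made and for which no test is given. Tumor 10 was the last one inside the PTGS2-high group at 1.10, with tumor 22 just outside at 0.76; tumor 20 was the first inside the PTGS2-low group at -0.82, with tumor 5 just outside at -0.65. The values fall in a gradient with no wide gap at either limit. The 4 normals lay between -3.45 and -2.89, and 28 of 29 tumors were above every normal. The DESeq-normalized table chose the same 20 tumors.

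**Figure D1:**
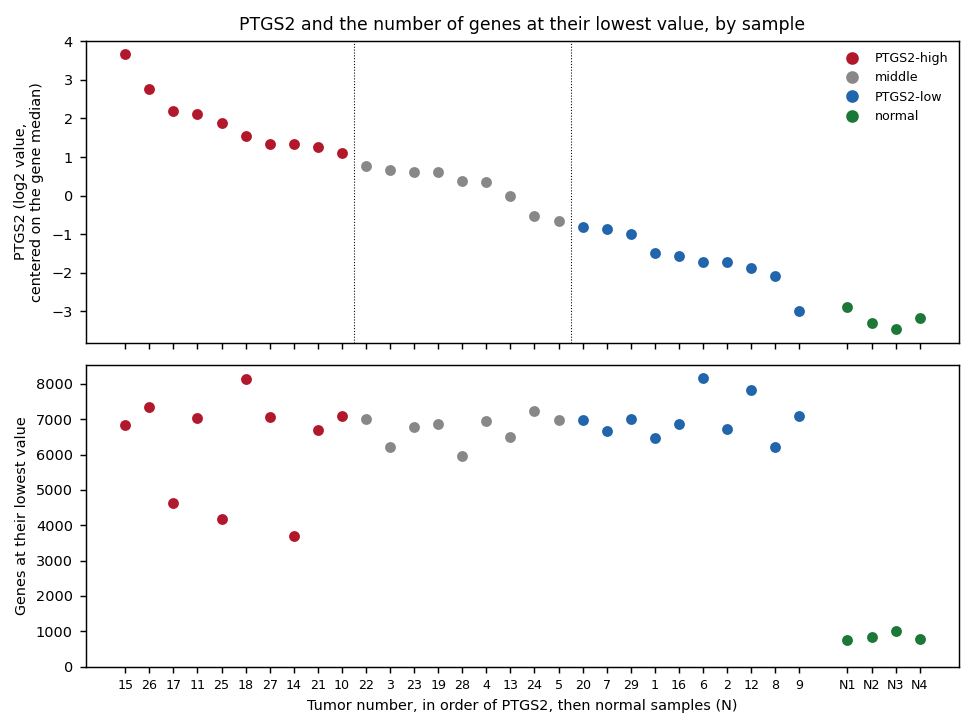
Upper panel: the deposited PTGS2 value (log2, centered on the gene median) of each tumor in rank order and of the 4 normals, with dotted lines at the limits of the groups. Lower panel: the number of genes at their shared lowest value in the same samples; the PTGS2-high tumors 14, 17 and 25 lie at 3699, 4638 and 4189, below every other tumor.

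The libraries of 3 PTGS2-high tumors stand apart. Tumors 14, 17 and 25 had 3699, 4638 and 4189 genes at the lowest value, against 5945 to 8175 in the other tumors and 755 to 1019 in the normals. Of 147 olfactory receptor genes, which bladder tissue is not known to use, 92.5, 76.9 and 87.1% lay above the lowest value in these tumors, against 100% in each normal. The share was 5.44 to 21.8% in the other 7 PTGS2-high, 12.9 to 48.3% in the middle and 4.76 to 59.2% in the PTGS2-low tumors, the highest of them tumor 8. The PTGS2-high tumors had 729.5 fewer genes at the lowest value than the PTGS2-low tumors (mean 6272 ± 1514 against 7002 ± 592, SD, n = 10 each), which is within the spread between tumors (two-sided permutation test, p = 0.181); without these 3 the difference was 169.2 in the other direction. The counts over all genes and the list medians are also given without them, in the text or in the plot of the lists, as are single genes where stated.

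No gene passed the test between the groups. With limma, 0 of 19237 genes were higher and 0 were lower in PTGS2-high tumors with the adjusted p at or under 0.05 and a difference of 2-fold (0.0% in each direction), and 0 passed without the fold threshold. The smallest adjusted p was 0.995, so every gene named below has an adjusted p of 0.995 or more, and none of them is called. At an unadjusted p under 0.05 there were 743 genes (3.86%), with 519 higher (2.70%) and 224 lower (1.16%) in PTGS2-high tumors. Of these, 96 of the 519 and 4 of the 224 passed the filter on low values only with the PTGS2-high group, beside 1353 of all 19237. With 20 tumors required there were 405 higher and 222 lower. With 10 required but without tumors 14, 17 and 25 the counts were 343 higher (1.78%) and 220 lower (1.14%). In no gene did all 10 PTGS2-high tumors lie above, or all 10 below, every PTGS2-low tumor (0.0%). The median standard error of a log2 difference was 0.33, and the 95% interval of the median gene reached 0.68 to either side before adjustment, a 1.60-fold range. When PTGS2 was fitted as a continuous value over all 29 tumors, again 0 genes passed with limma, with a smallest adjusted p of 0.348 and 795 positive (4.13%) and 275 negative (1.43%) slopes at an unadjusted p under 0.05.

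**Figure D2:**
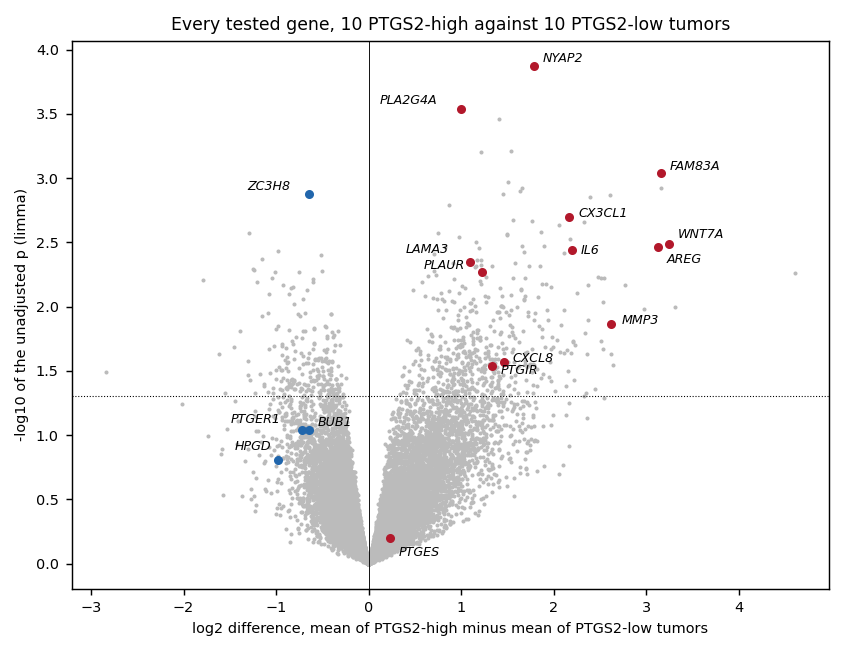
Each point is 1 of 19237 tested genes: the log2 difference between the group means on the horizontal axis and -log10 of the unadjusted limma p on the vertical axis, with a dotted line at an unadjusted p of 0.05. No gene passes after adjustment. NYAP2 (1.78) and PLA2G4A (1.00) are highest on the vertical axis, and more of the genes above the line lie to the right (519) than to the left (224). Of these, 96 of the 519 and 4 of the 224 passed the filter on low values only with the PTGS2-high group, beside 1353 of all 19237. With 20 tumors required the counts are 405 and 222.

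The pathway that COX-2 belongs to was measured with 25 other genes, all of them tested. Their mean was higher in the PTGS2-high tumors for 16 and lower for 9, with a median log2 difference of 0.11, beside 0.01 over all genes tested and 51.4% of all genes higher. PLA2G4A and PTGIR were the 2 of 25 at an unadjusted p under 0.05, both higher, beside 2.70% of all genes. Without tumors 14, 17 and 25 the median was 0.10, again with 16 of 25 higher, beside 49.7% of all genes.

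PLA2G4A encodes the cytosolic phospholipase A2 that releases arachidonic acid, the substrate of COX-2, and in the RefSeq annotation of the dog assembly UU_Cfam_GSD_1.0 it is the nearest annotated protein-coding gene to PTGS2 on one side. Its lowest, median and highest values were 0.03, 0.68 and 1.55 in the PTGS2-high tumors and -1.12, -0.38 and 0.47 in the PTGS2-low tumors. All 10 PTGS2-high tumors lay above the median of the PTGS2-low tumors, and 7 lay above every one of them. The log2 difference was 1.00 ± 0.23 (SE, 95% interval 0.52 to 1.48), a 2.00-fold difference, with an unadjusted limma p of 0.000292, the second smallest of all genes tested, and an adjusted p of 0.995. It was 1.07 without tumors 14, 17 and 25, and between 0.90 and 1.09 when any of the 20 tumors was left out. All 29 tumors held more of it than any normal, whose values ran from -2.93 to -2.14.

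The other cyclooxygenase and the synthases that act on its product did not pass, and their differences were smaller than their standard errors. PTGS1, the constitutive COX-1, ran from -2.48 to 2.64 in the PTGS2-high and from -3.27 to 1.44 in the PTGS2-low tumors, and its log2 difference was 0.35 ± 0.60. It was 0.025 without tumor 25, which held the highest value, and 0.97 between the 7 highest and the 7 lowest tumors. PTGES, the inducible prostaglandin E synthase that is often regulated with COX-2, had medians of -0.01 and -0.19 and a difference of 0.23 (95% interval -0.77 to 1.23), and without tumors 14, 17 and 25 the difference was -0.07. Its lowest and highest values, -1.69 and 1.26 against -2.67 and 1.37, overlapped over nearly the whole range. PTGES2, a second prostaglandin E synthase, differed by -0.14 ± 0.19. The prostacyclin synthase PTGIS (0.30 ± 0.70), the prostaglandin D synthase PTGDS (-0.07 ± 0.76) and the thromboxane synthase TBXAS1 (0.17 ± 0.52) varied widely within both groups. PTGIS and PTGDS were below every normal in 29 and 28 of the 29 tumors, as the smooth muscle marker TAGLN was in 29. The 95% intervals of PTGIS and PTGDS include a 2-fold difference in either direction.

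Among the receptors, PTGIR had the largest difference. PTGIR, the prostacyclin receptor, had a lowest, median and highest value of -1.38, 0.66 and 2.57 in the PTGS2-high and of -3.09, -0.66 and 1.37 in the PTGS2-low tumors. The difference was 1.34 ± 0.57 (unadjusted p = 0.0292), and 1.04 without tumors 14, 17 and 25; tumor 25 held the highest value. The prostaglandin D receptor PTGDR differed by 0.96 ± 0.47, and by 0.61 without tumor 11, and the second D receptor PTGDR2 by 0.00 ± 0.44. Of the prostaglandin E receptors measured, PTGER2 (0.11 ± 0.25) and PTGER4 (0.03 ± 0.28), which signal through cyclic AMP, differed by less than their standard errors. PTGER1, which signals through calcium, was lower on average in the PTGS2-high tumors by 0.71 (difference -0.71 ± 0.40, unadjusted p = 0.0915), with 3 of 10 PTGS2-high and 0 of 10 PTGS2-low tumors at its lowest value. Without tumors 14, 17 and 25 its difference was -0.93, and between the 7 highest and the 7 lowest tumors it was -0.265. The thromboxane receptor TBXA2R (0.25 ± 0.58) and the prostaglandin F receptor PTGFR (0.16 ± 0.29) overlapped in the groups.

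Transport and inactivation of prostaglandins were read from 4 genes. HPGD, the dehydrogenase that inactivates prostaglandin E2, had medians of -0.00 in the PTGS2-high and 0.85 in the PTGS2-low tumors. Its values ran from -4.07 to 1.63 and from -2.20 to 1.52, so the groups overlapped, although 9 of 10 PTGS2-high tumors did not exceed the PTGS2-low median. The difference was -0.98 ± 0.66 (unadjusted p = 0.157), and -1.19 without tumors 14, 17 and 25. It was -0.59 without tumor 21 and -0.40 between the 14 highest and the 14 lowest tumors. The uptake transporter SLCO2A1 (0.63 ± 0.45), the efflux transporter ABCC4 (0.31 ± 0.49) and the reductase PTGR1 (-0.23 ± 0.39) did not pass either.

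In the leukotriene and lipoxygenase branch, which uses the same arachidonic acid, the leukotriene B4 receptor LTB4R differed by 1.00 ± 0.61. The synthetic genes lay nearer to zero, with ALOX5AP at 0.11 ± 0.35, LTA4H at -0.02 ± 0.19, LTC4S at -0.25 ± 0.49, ALOX15 at -0.24 ± 0.19 and ALOX12 at -0.32 ± 0.59. PLA2G2A, PTGES3, HPGDS, CBR1, PTGER3, ALOX5 and CYSLTR1 were not analysed here.

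**Figure D3:**
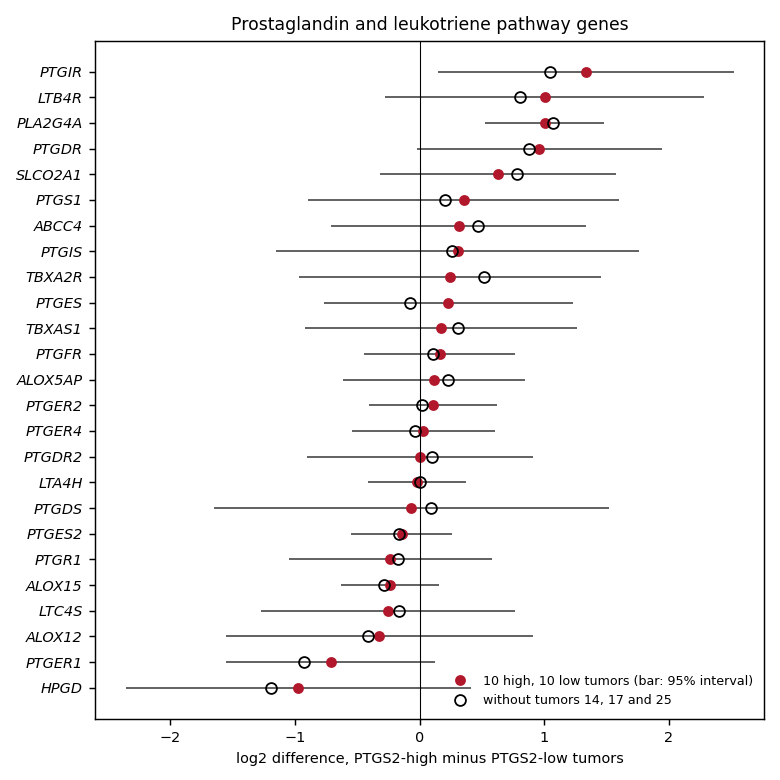
Log2 difference (PTGS2-high minus PTGS2-low tumors) of each of the 25 pathway genes with its 95% interval (filled), and without tumors 14, 17 and 25 (open). PLA2G4A and PTGIR have intervals that leave out 0, and the open circle of PTGES lies at -0.07, on the other side of 0 from the filled one at 0.23.

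Several inflammatory cytokines are known to induce PTGS2. Of the 24 tested members of the list of inflammatory cytokines and their receptors, 20 were higher on average in the PTGS2-high tumors, with a median difference of 0.42, and 5 of 24 were higher at an unadjusted p under 0.05, beside 51.4% and 2.70% of all genes. Without tumors 14, 17 and 25, 18 of 24 were higher and the median was 0.36. The members with the smallest p were IL6 and OSMR.

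IL6, an inflammatory cytokine that signals through STAT3, had a lowest, median and highest value of -2.30, 1.19 and 2.33 in the PTGS2-high and of -2.70, -1.67 and 3.03 in the PTGS2-low tumors. In 9 of 10 PTGS2-high tumors it lay above the PTGS2-low median, but the highest value of all 20 tumors belonged to tumor 20, a PTGS2-low tumor, and the next PTGS2-low tumor was at -1.10. The difference was 2.20 ± 0.67 (95% interval 0.80 to 3.59), a 4.58-fold difference, with an unadjusted p of 0.00363. With any 1 tumor left out it lay between 2.03 and 2.69, and it was 2.46 without tumors 14, 17 and 25. The highest of these, 2.69 ± 0.51, is the value without tumor 20, singled out after its IL6 level was seen, with an unadjusted p of 4.05e-05 and an adjusted p of 0.519 in limma. Between the 7 highest and the 7 lowest tumors, a comparison that also leaves out tumor 20, IL6 had the smallest p of all genes, with a difference of 3.25 and an adjusted limma p of 0.0543. Over all 29 tumors IL6 was higher by 0.70 ± 0.15 for each unit of PTGS2 (unadjusted p = 5.22e-05). In the normals IL6 lay between 0.10 and 0.93, above 17 of the 29 tumors and below 8.

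OSMR, the receptor subunit for oncostatin M of the same cytokine family, differed by 1.22 ± 0.38 (unadjusted p = 0.00431), with 5 of 10 PTGS2-high tumors above every PTGS2-low tumor. Other members are named here after their values were seen. IL11 differed by 1.84 ± 0.69, and 6 of 10 PTGS2-high tumors lay above every PTGS2-low tumor. It was at its lowest value in 1 of 10 PTGS2-high and 2 of 10 PTGS2-low tumors. CXCL8, the neutrophil attractant interleukin-8, had medians of 1.48 and -0.17 and differed by 1.46 ± 0.61, and IL1A, an interleukin-1, by 0.93 ± 0.44. IL1B and TNF, the best known inducers of COX-2, were nearer to zero, with differences of 0.56 ± 0.45 and 0.34 ± 0.48, and TNF stood at -0.38 without tumors 14, 17 and 25. IL1B was at 0.33 without tumor 25 and at 0.83 without tumor 20.

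**Figure D4:**
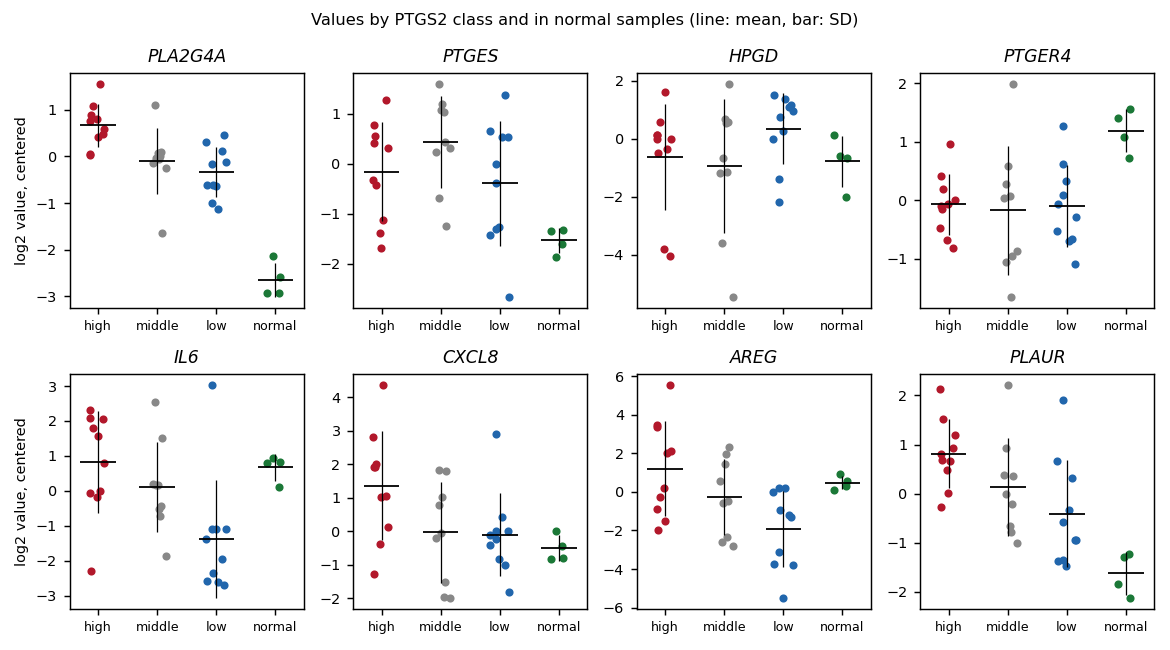
Deposited log2 values of 8 genes in each of 10 PTGS2-high, 9 middle and 10 PTGS2-low tumors and 4 normals, with the mean (line) and SD (bar). PLA2G4A, IL6, AREG and PLAUR sit higher in most PTGS2-high than PTGS2-low tumors, PTGES and PTGER4 overlap, and 1 PTGS2-low tumor (tumor 20) lies far above the others in IL6 and CXCL8.

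NF-kB genes and their feedback targets were higher on average in 18 of 24, with a median of 0.23 (0.15 without tumors 14, 17 and 25) and 2 of 24 higher at an unadjusted p under 0.05, beside 51.4% and 2.70% of all genes. PLAUR, the urokinase receptor, lay at -0.28, 0.75 and 2.13 (lowest, median, highest) in the PTGS2-high and at -1.47, -0.76 and 1.91 in the PTGS2-low tumors. All 10 PTGS2-high tumors were above the PTGS2-low median, and the difference was 1.23 ± 0.39 (unadjusted p = 0.00541), 1.19 without tumors 14, 17 and 25. SELE, the endothelial adhesion receptor E-selectin, differed by 1.50 ± 0.69.

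PLAUR also belongs to the matrix proteases and the plasminogen system, the list with the largest median difference, 1.21 over 15 genes and 1.02 without tumors 14, 17 and 25. Here 13 of 15 genes were higher on average and 4 of 15 at an unadjusted p under 0.05, beside 51.4% and 2.70% of all genes. MMP3, a stromelysin, differed by 2.62 ± 0.97 (2.56 without the 3 tumors) and MMP1, an interstitial collagenase named after its values were seen, by 2.08 ± 0.77. The mean level of the list ran from -0.85 to 1.73 in the PTGS2-high and from -1.27 to 1.15 in the PTGS2-low tumors, so that single tumors of the groups overlapped.

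Among genes that control PTGS2 transcription or the stability of its messenger RNA, 10 of 16 were higher on average, with a median of 0.10 (0.07 without tumors 14, 17 and 25, with 8 of 16 higher), and 1 was higher at an unadjusted p under 0.05, beside 51.4% and 2.70% of all genes. That gene was SOCS3, a feedback inhibitor of the IL-6 receptor, at 1.15 ± 0.41. MAPK14, the p38 kinase known to stabilize PTGS2 messenger RNA, differed by -0.36 ± 0.20. CEBPB, a transcription factor that binds the PTGS2 promoter, was named after its values were seen and differed by 0.37 ± 0.23.

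Growth factor genes showed a wide range. AREG, the EGFR ligand amphiregulin, had a lowest, median and highest value of -1.97, 1.13 and 5.56 in the PTGS2-high and of -5.51, -1.25 and 0.23 in the PTGS2-low tumors. The groups overlapped, with 5 of 10 PTGS2-high tumors above every PTGS2-low tumor. The difference was 3.13 ± 0.95, an 8.75-fold difference (unadjusted p = 0.00345), and 3.13 without tumors 14, 17 and 25. HBEGF, a second ligand of the family, differed by 0.59 ± 0.31 (0.39 without tumor 1), and over the 9 family genes 5 were higher on average with a median of 0.48 (0.30 without the 3 tumors). Of the MAPK feedback and immediate-early genes, 24 of 26 were higher on average with a median of 0.54 (0.42 without the 3 tumors), and 4 of 26 were higher at an unadjusted p under 0.05, beside 51.4% and 2.70% of all genes. PHLDA1 (0.58 ± 0.19, and 0.23 with 14 against 14 tumors) and the phosphatase DUSP1 (1.11 ± 0.47) had the smallest p among them.

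WNT7A, a Wnt ligand of epithelia, ran from -1.43 to 4.53 in the PTGS2-high and from -4.66 to 3.38 in the PTGS2-low tumors, where 2 of 10 were at its lowest value. Its difference was 3.25 ± 0.97 (unadjusted p = 0.00324), 3.34 without tumors 14, 17 and 25 and 1.85 with 14 against 14 tumors, in a list of Wnt and Notch genes with a median of 0.14. The Notch ligand DLL1 of the same list differed by 0.71 ± 0.30. These were the 2 of 19 genes higher at an unadjusted p under 0.05, and 1 was lower, the R-spondin receptor LGR4 (-0.62 ± 0.29, named after its value was seen), beside 2.70% and 1.16% of all genes.

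Basal and squamous epithelial genes were higher on average in 20 of 23, with a median of 0.56 (0.65 without tumors 14, 17 and 25, with 18 of 23 higher), and 5 of 23 were higher at an unadjusted p under 0.05, beside 51.4% and 2.70% of all genes. LAMA3 and LAMB3 encode laminin chains, part of the adhesion layer under basal epithelial cells. LAMA3 differed by 1.10 ± 0.34 and LAMB3 by 1.05 ± 0.38 (1.29 and 1.15 without the 3 tumors); all 10 PTGS2-high tumors lay above the PTGS2-low median in both. Of the luminal genes, KRT20 (1.63 ± 0.98) and BCAS1 (-0.57 ± 0.37, and -0.31 without tumor 21) had the smallest p. KRT20 reached 8.32 in tumor 14, and its difference was 0.31 without tumors 14, 17 and 25. It was at its lowest value in 1 of 10 PTGS2-high and 4 of 10 PTGS2-low tumors. The claudins and junction genes had a median of 0.03 over 19 genes, with CLDN4 at 0.25 ± 0.21 and ESRP2 at -0.32 ± 0.22.

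Of 21 proliferation genes, 0 were higher on average and 21 were lower, with a median of -0.30 and 0 at an unadjusted p under 0.05, beside 51.4% of all genes higher on average and 1.16% lower at that p. The smallest p belonged to the mitotic kinase BUB1 (-0.64 ± 0.36) and the replication helicase subunit MCM5 (-0.67 ± 0.39). Both had their lowest value in tumor 11, at -2.83 and -3.31, far below the other PTGS2-high tumors, and without that tumor both differences were -0.35. Without tumors 14, 17 and 25 the median was -0.33 and 3 of 21 genes were higher. Genes of 1 list share their tumors and are not independent replicates. Hypoxia and glycolysis genes were higher on average in 15 of 17 (median 0.26), with 3 higher at an unadjusted p under 0.05, beside 51.4% and 2.70% of all genes, among them the vasodilator peptide gene ADM (1.13 ± 0.39) and hexokinase 2, HK2 (1.54 ± 0.55, and 1.25 without tumors 14, 17 and 25).

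**Figure D5:**
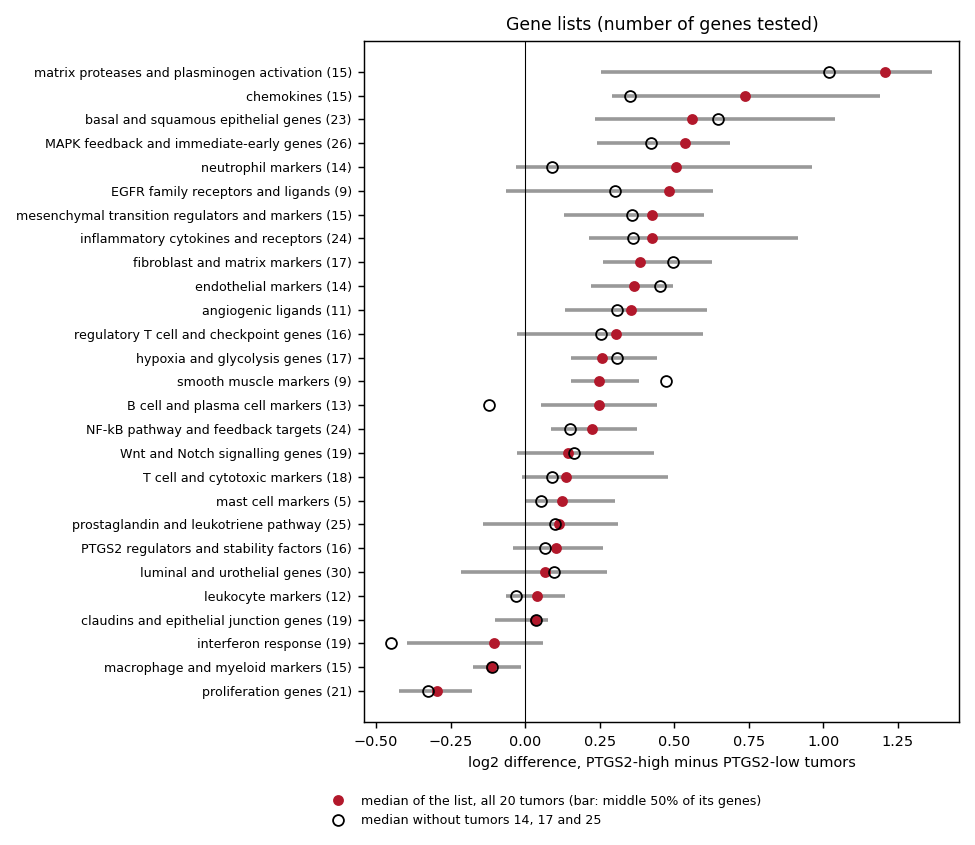
Median log2 difference of each gene list between PTGS2-high and PTGS2-low tumors (filled; the bar spans the middle 50% of its genes) and the same without tumors 14, 17 and 25 (open). Matrix proteases have the highest median (1.21) and proliferation genes the lowest (-0.30); the medians of chemokines, neutrophil, B cell and interferon genes move most when the 3 tumors are left out.

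Markers of the other cell types in a biopsy were compared in the same way, since immune and stromal cells can make PTGS2 and its inducers; over all genes 51.4% were higher on average. The 12 general leukocyte markers, PTPRC among them, had a median of 0.04, with 7 higher and 5 lower on average (-0.03 with 4 of 12 higher without tumors 14, 17 and 25), and a mean level between -0.50 and 0.94 in the PTGS2-high and between -0.75 and 2.24 in the PTGS2-low tumors. Their smallest p belonged to CD37 (0.23 ± 0.33) and PLEK (0.20 ± 0.34). With the leukocyte level as a covariate 0 genes passed with limma and 818 were at an unadjusted p under 0.05.

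The 14 neutrophil markers had a median of 0.51, and of 0.09 without tumors 14, 17 and 25, with CSF3R at 1.13 ± 0.55 (0.73 without them) and S100A12 at 1.74 ± 0.86. Their mean level ran from -1.10 to 1.05 in the PTGS2-high and from -1.38 to 1.43 in the PTGS2-low tumors. The 15 chemokines had a median of 0.74, with 13 higher on average, and of 0.35 without those 3 tumors, with 10 of 15 higher. CX3CL1, a chemokine held on epithelial and endothelial surfaces, lay at -0.46, 0.81 and 1.76 (lowest, median, highest) in the PTGS2-high and at -4.67, -1.59 and 1.21 in the PTGS2-low tumors. It differed by 2.17 ± 0.61 (unadjusted p = 0.00201), by 2.26 without tumors 14, 17 and 25, and 7 of 10 PTGS2-low tumors lay below every PTGS2-high tumor. CCL17, which attracts regulatory T cells through CCR4, differed by 1.97 ± 0.89 (2.09 without those tumors).

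Of the macrophage and myeloid markers, 3 of 15 were higher on average (median -0.12), with MSR1 at -0.41 ± 0.35 (-0.20 without tumor 16). MARCO, a scavenger receptor of macrophages, was at its lowest value in 8 of 10 PTGS2-low and 1 of 10 PTGS2-high tumors and differed by 1.69 ± 0.71, although tumor 20 held 4.30. T cell and cytotoxic markers had a median of 0.14 over 18 genes (0.09 without tumors 14, 17 and 25), with CD8B at 1.06 ± 0.45 and GZMA at 1.09 ± 0.78 (0.19 with 14 against 14 tumors). Regulatory T cell and checkpoint genes had a median of 0.30 over 16 genes, with TGFB1 at 0.59 ± 0.30 and PDCD1LG2 at -0.59 ± 0.36 (-0.39 without tumor 20). B cell and plasma cell markers had a median of 0.25 over 13 genes, 10 of them higher, and of -0.12 without tumors 14, 17 and 25, with 5 of 13 higher. Their smallest p belonged to BLK (1.26 ± 0.70) and MS4A1 (1.41 ± 1.13), and MS4A1 was at 0.65 without those tumors and at 2.20 without tumor 20. The 5 mast cell markers had a median of 0.12 (0.05 without those tumors), with KIT at 0.56 ± 0.35 and CMA1 at -0.49 ± 0.36 (-0.26 without tumor 17). Of 19 interferon response genes 6 were higher on average (median -0.11), and 0 of 19 without tumors 14, 17 and 25 (median -0.45), with PSMB8 at -0.40 ± 0.42 and IFI44 at -0.50 ± 0.55. PSMB8 was at -0.23 without tumor 20, and IFI44 at -0.30 without tumor 21 and at -0.91 without tumors 14, 17 and 25.

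No member of the stromal lists passed, and the lists themselves were not tested. Fibroblast and matrix markers were higher on average in 15 of 17 (median 0.39, and 0.49 without the 3 tumors), with VCAN at 1.04 ± 0.65 (0.63 without tumor 25) and COL12A1 at 0.89 ± 0.61. Endothelial markers were higher on average in 14 of 14 (median 0.36), with the VEGF receptors FLT1 at 1.20 ± 0.54 and KDR at 0.61 ± 0.52 (0.32 without tumor 21). Angiogenic ligands were higher on average in 9 of 11 (median 0.35), with VEGFC at 0.87 ± 0.41 and PDGFB at 0.78 ± 0.47 (0.52 without the 3 tumors). At an unadjusted p under 0.05 were 1 of 14 endothelial, 1 of 11 angiogenic and 0 of 17 fibroblast genes, all higher, and the shares over all genes were 51.4% higher on average and 2.70% higher at that p. Smooth muscle markers had a median of 0.25 over 9 genes (0.47 without the 3 tumors), with CALD1 at 0.41 ± 0.58 and TAGLN at 0.41 ± 0.67. With 1 tumor left out, CALD1 ran from 0.21 (without tumor 25) to 0.66 (without tumor 29) and TAGLN from 0.11 (without tumor 15) to 0.83 (without tumor 29). Mesenchymal transition genes had a median of 0.42 over 15 genes, where TGFB1 and CDH2 (0.85 ± 0.46, and 0.48 without the 3 tumors) had the smallest p. The fibroblast mean level ran from -1.45 to 2.13 in the PTGS2-high and from -1.89 to 1.24 in the PTGS2-low tumors, and its part in the differences above was not tested.

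Outside the lists, the 5 higher and 3 lower genes with a symbol and the smallest unadjusted p are named here, after their values were seen. NYAP2, a signaling adaptor known from neurons, had the smallest p of all, 0.000133, with a difference of 1.78 ± 0.38, and of 1.52 without tumors 14, 17 and 25. Its values lay between -0.90 and 1.36 in the PTGS2-high and between -2.89 and 0.31 in the PTGS2-low tumors, and between 3.44 and 3.70 in the normals. PLG, the liver gene for plasminogen, and GRM5, a glutamate receptor of neurons, were each at the lowest value in 9 of 10 PTGS2-low tumors and between 5.85 and 6.89 in the normals, the samples with the fewest genes at the lowest value. PLG lay above its lowest value in 8 PTGS2-high, 5 middle and 1 PTGS2-low tumor and GRM5 in 7, 5 and 1, so that both reached the 10 tumors needed for testing only with the PTGS2-high group, and neither is tested when 20 tumors are required. Their differences, 1.66 ± 0.44 and 1.64 ± 0.44, were 1.14 and 1.24 without tumors 14, 17 and 25, and whether the low-level signal of those libraries has a part in them was not tested. FAM83A, a gene that acts in EGFR and MAPK signaling, differed by 3.16 ± 0.82 (2.54 without the 3 tumors and 1.99 with 14 against 14). In this gene 8 of 10 PTGS2-low tumors lay below every PTGS2-high tumor, 4 of them at its lowest value. PLIN1, a coat protein of lipid droplets in fat cells, differed by 3.16 ± 0.84 (2.94 without the 3 tumors and 1.51 with 14 against 14). On the other side ZC3H8 (-0.64 ± 0.17), PSMG3 (-0.51 ± 0.16) and the transporter SLC47A2 (-1.24 ± 0.40) were lower on average in the PTGS2-high tumors. SLC47A2, at its lowest value in 2 of 10 PTGS2-high tumors, was at -0.74 with 14 against 14. In ZC3H8, 10 of 10 PTGS2-high tumors lay below the PTGS2-low median.

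The 9 tumors between the groups did not enter the test, although they counted toward the filter on low values. Of the 519 genes higher at an unadjusted p under 0.05, 328 (63.2%) had a positive slope on PTGS2 among those 9 tumors, beside 50.4% of all genes tested, and of the 224 lower genes 139 (62.1%) had a negative one. Genes move together across so few tumors, and these shares are given as a description. The slope in the 9 tumors was 0.13 for PLA2G4A, 0.99 for IL6, 0.96 for OSMR, 0.77 for PLAUR and 0.84 for AREG. Of the 35 genes named here at an unadjusted p under 0.05, LGR4 aside, 26 had a slope of the same sign as their difference and 9 of the other sign. Those 9 were the higher genes WNT7A (-1.80), FAM83A (-1.19), ADM (-0.58), LAMB3 (-0.47), PHLDA1 (-0.20), CX3CL1 (-0.09) and PLIN1 (-0.06) and the lower genes SLC47A2 (0.39) and PSMG3 (0.12).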

How the data were processed

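Ribosomal RNA was depleted and 29 tumors and 4 normals were sequenced by the authors in 1 batch of paired-end reads, which they aligned to CanFam3.1 with COBWeb. In Strand NGS the authors normalized gene levels with TMM and, separately, DESeq. The deposited log2 values have each gene's median subtracted and hold no counts, which left out a count test. Depth per sample was not given. The commonest low value above the shared lowest one, taken as 1 read pair, was 1.64 to 2.48 normalized units in the compared tumors. The last line of each table was incomplete and was left out.

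Groups were the 10 highest and 10 lowest of 29 tumors by PTGS2 in the TMM table. limma 3.58.1 in R 4.3.3 (lmFit, eBayes without trend) was run on 19237 genes above the lowest value in at least 10 tumors, with Benjamini-Hochberg adjustment, calling an adjusted p of at most 0.05 and 2-fold. The fit was also run on simulated independent genes without ties at a lowest value. That run does not bear on genes that move together or on tied values. The permutation test used 100000 resamples (scipy 1.17.1).

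Of 656 genes in 27 lists, 468 were in the table (4 by Entrez ID) and 459 were tested; others were not analysed here. One gene is not reported here. Named were every pathway gene and, as no gene was called, the 2 genes with the smallest p of each other list. Counts over the 92 named genes also cover those named after their values were seen, except LGR4. The tumors, lists and tests were chosen with earlier results of these data known. Alternatives were the second deposited table, a mean-variance trend, other filters, no fold threshold, other group sizes, a continuous PTGS2, 2 covariates and each tumor left out; leaving out tumors 14, 17 and 25 together was added after seeing the data.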

Additional observations from a re-analysis of the deposited data

Results flagged for a closer look

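Of 192 groups of 4 to 10 samples examined, 22 held a sample far from the rest of its group. The share of about 5% that chance alone gives applies to independent groups without tied values. These groups share tumors and some hold many values at the lowest, so the 22 are given as a description. Tumor 20, the PTGS2-low tumor nearest to the middle of the ranking, accounts for 9 of them, and it held the highest PTGS2-low value in 41 of 92 named genes. It reached 3.03 in IL6, where the next PTGS2-low tumor was at -1.10, and 2.91 in CXCL8, 5.22 in S100A8, 4.30 in MARCO, 2.09 in PLEK, 1.46 in CEBPB, 2.75 in DUSP1, 3.01 in FLT1 and 3.38 in WNT7A. Its leukocyte marker level (mean z 2.32) was the highest of the 29 tumors; the part of its leukocyte content in these values was not tested. Without tumor 20, 754 genes were higher and 300 lower at an unadjusted p under 0.05, none passed after adjustment with limma, and the log2 differences were 2.69 for IL6, 1.80 for CXCL8, 1.48 for PLAUR, 2.29 for MARCO and 1.91 for S100A8.

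Among the other PTGS2-low tumors, tumor 29 stood apart in TAGLN (3.23) and PTGIS (3.95), tumor 9 in ALOX12 (2.99) and in GRM5 (0.29), tumor 7 in PLG (0.57) and tumor 2 in CMA1 (1.41). In GRM5 and PLG these were the only PTGS2-low tumors above the lowest value.

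In the PTGS2-high group, tumor 11 lay far below the rest in BUB1 (-2.83) and MCM5 (-3.31), tumor 21 in BCAS1 (-2.77) and tumor 26 in ALOX12 (-3.71). Tumor 21 lay far above the rest in VEGFA (3.82), a gene named after its values were seen, tumor 25 in SELE (3.84) and tumor 14 in KRT20 (8.32).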

How the results depend on the processing

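The counts of genes higher and lower in PTGS2-high tumors were 0 with limma under each of the 12 other fits or thresholds and in the 20 fits with 1 tumor left out. The smallest adjusted p ranged from 0.0514 (without tumor 29) to 1.00, and was 0.0543 with 7 against 7 tumors. Genes at an unadjusted p under 0.05 numbered 563 to 1070 under the other settings and 586 to 1054 with 1 tumor left out, with more of them higher than lower each time. The number of genes at the lowest value differed by -729.5 between the groups, by -937 to -444 with 1 tumor left out, and by 169.2 without tumors 14, 17 and 25. No paired analysis was possible because each tumor comes from a different dog.

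A mean-variance trend and the other filters leave every log2 difference unchanged, and the DESeq-normalized ranking chose the same 20 tumors. Values under these settings are therefore repeats, and a share of sign changes that counts them is no measure of stability. Of 1009 values of named genes under all other settings, log2 differences or slopes on PTGS2, 20 changed sign, and none passed the threshold. With 14 against 14 tumors these were PTGES2 (0.0314), LTC4S (0.11), TBXAS1 (-0.34) and PTGDS (0.20); with 7 against 7, ABCC4 (-0.0462), PTGES (-0.33) and PTGDS (0.79); with genes at the lowest value as a covariate, PTGES (-0.0720), PTGER2 (-0.00028), LTA4H (0.00993), PTGER4 (-0.0301) and TNF (-0.23); without tumors 14, 17 and 25, PTGES (-0.0740), LTA4H (0.00325), PTGER4 (-0.0405), PTGDS (0.0889) and TNF (-0.38); on a continuous PTGS2, PTGDS (0.15); and in the DESeq-normalized table with either ranking, PTGDR2 (-0.0203). With 1 tumor left out, 12 genes changed sign: ALOX12 (-0.59 to 0.0685), ALOX5AP (-0.10 to 0.24), LTA4H (-0.10 to 0.0583), PTGDR2 (-0.16 to 0.23), PTGDS (-0.43 to 0.36), PTGER2 (-0.0222 to 0.22), PTGER4 (-0.0863 to 0.18), PTGES (-0.0217 to 0.43), PTGFR (-0.0206 to 0.31), PTGIS (-0.0660 to 0.77), TBXA2R (-0.0731 to 0.52) and TBXAS1 (-0.0451 to 0.43). The cause of these sign changes was not tested. With 1 tumor left out, the differences of 42 of 92 named genes (LGR4 is not among the 92) moved by over 1.5 times or turned, 0 of them among those at an unadjusted p under 0.05. Of the 35 named genes at an unadjusted p under 0.05, LGR4 aside, 7 differences were smaller by over 1.5 times with 14 against 14 tumors, WNT7A (1.85), FAM83A (1.99), PLIN1 (1.51), MMP1 (1.39), GRM5 (1.05), PHLDA1 (0.23) and SLC47A2 (-0.74), and DUSP1 (1.71), VEGFC (1.37) and MMP1 (3.21) were larger with 7 against 7.

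Ranking by 1 gene measured once per dog gives no error on a tumor's place. Tumors near the limits are separated by 0.34 and 0.17 on the log2 scale.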
